A study of Mus musculus with 9 samples.

Results

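The prostaglandin E2 genes listed for these cells were 10: the cyclooxygenases Ptgs1 and Ptgs2, the terminal synthases Ptges, Ptges2 and Ptges3, the breakdown enzyme Hpgd, the uptake transporter Slco2a1 and the receptors Ptger1, Ptger2 and Ptger4. Of these, 9 were matched to a probe set, among 19938 genes in all, and Ptgs1 was not analysed here. Each gene is represented by the probe set annotated to its symbol with the highest mean over all 9 arrays. The probe sets were thus chosen by their mean level, and the list was drawn up with the fall of Ptges in brain lines already known, so that fall is a description and not independent support.

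Expression was measured on 9 arrays, 1 for each of 9 lines regrown from mice bearing 4T1, a metastatic murine breast carcinoma. The lines named 4T1-T2 came from primary tumors, those named 4T1-LM2 from metastases in the lung and those named 4T1-BM2 from metastases in the brain, with 3 lines of each. Below, a line is named by its origin and the number of its mouse, as in brain line 1. Per the design text the 9 lines came from 9 separate mice, although the titles use the mouse numbers 1 to 3 in each origin. No drug treatment or genetic change is named in the labels, and the sources used here do not give the age and strain of the mice. The lines of an origin share 1 name, whose meaning is not stated, and all 9 were thawed, grown and extracted together, so the values describe cultured cells without the tissue around a tumor. If the lines of an origin shared a selected ancestor they would be fewer than 3 independent samples.

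Prostaglandin E2 is made from arachidonic acid that phospholipases free from membranes. A cyclooxygenase turns it into the unstable intermediate prostaglandin H2, and a terminal synthase turns that into prostaglandin E2, which leaves the cell, acts on the EP receptors and is taken up and oxidized again. In carcinomas the pathway is known for its link to inflammation, invasion and suppression of immune cells.

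The array medians lay between 5.06 and 5.19 log2 units, and precision is limited by having 9 arrays. The interquartile range of a line's deviations from each gene's median was largest in brain line 3 (0.178) and lung line 1 (0.164), against 0.0886 to 0.126 in the other lines. Of 7 mammary epithelial markers, all lay above the median of the probe sets with no gene name, 4.18, which serves here as a guide to background. Their mean level was 9.84 to 10.2 in primary, 10.1 to 10.3 in lung and 10.6 to 10.9 in brain lines, and 3 of the 7 (Cdh1, Krt14 and Krt19) passed the test as higher in brain than in primary lines. Only the call of Krt14 held without any 1 line; that of Cdh1 was lost in 8 and that of Krt19 in 5 of 9 such fits. Both were also lost when all probe sets were tested (0.118 and 0.0929) or only the 6 arrays compared were fitted (0.118 and 0.123), and that of Cdh1 with the mouse number as a block (0.0538). The means of 6 fibroblast markers were 4.89 to 5.10, 4.81 to 4.99 and 4.77 to 4.92 in primary, lung and brain lines. Dcn and Lum were under 4.18 in every origin, and Pdgfrb in lung and brain lines. Pdgfra (7.25 to 7.79), Col1a1 (6.07 to 6.54) and Col6a3 (5.06 to 5.71) were above 4.18 in all 9 lines. The means of 6 leukocyte markers were 4.32 to 4.43, 4.36 to 4.51 and 4.39 to 4.61. Ptprc and Adgre1 were under 4.18 in every origin, and Csf1r and Cd74 in some. Cd68 (5.73 to 6.22) and Tyrobp (4.68 to 4.98) were above 4.18 in all 9 lines. The means of 6 neural markers were 4.42 to 4.47, 4.38 to 4.64 and 4.31 to 4.46. Aqp4 and Olig2 were under 4.18 in every origin. Mog (4.92 to 5.45), Rbfox3 (4.69 to 5.31) and Snap25 (4.44 to 4.65) were above 4.18 in all 9 lines. The means of 4 lung markers were 3.62 to 3.66, 3.64 to 3.72 and 3.62 to 3.75, with Sftpb (4.59 to 4.79) above 4.18 in all 9 lines. No fibroblast, leukocyte, endothelial, neural or lung marker passed in any comparison. Of all genes, 3.13% passed in brain against primary, 1.98% in brain against lung and 0% in lung against primary lines, so few calls could occur among so few markers.

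Ptges was lower in brain lines than in lung or primary lines. It encodes the inducible microsomal prostaglandin E synthase, which works in concert with the cyclooxygenase made from Ptgs2. Its log2 level was 5.62, 5.77 and 5.45 in brain lines 1 to 3, 7.91, 8.12 and 8.14 in the lung lines, and 7.67, 8.16 and 7.27 in the primary lines. Every brain line was lower than every other line, while lung and primary lines overlapped. The means were 5.61 ± 0.16 in brain, 8.06 ± 0.13 in lung and 7.70 ± 0.44 in primary lines (SD, n = 3 each).

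Brain lines thus held 4.25-fold less Ptges signal than primary lines (log2 difference -2.09 ± 0.19, SE, 95% interval -2.51 to -1.66, limma adjusted p = 0.0013) and 5.45-fold less than lung lines (-2.45 ± 0.19, interval -2.87 to -2.02, adjusted p = 0.00187). These comparisons share the brain lines. In bulk RNA, fewer cells expressing a gene and less of its RNA per cell cannot be told apart. The difference between lung and primary lines did not pass (0.36 ± 0.19, interval -0.07 to 0.78, adjusted p = 0.975). In order of level, lung and primary lines were therefore neighbours that did not differ beyond their spread, with the brain lines below both. Among primary lines Ptges varied more than within the other origins, and line 3 was the lowest of the 6 lines outside the brain group. In brain lines the mean of Ptges was still above background as judged by unnamed probe sets, of which 29.6% had a higher mean.

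Of the 9 members, Ptges was the 1 that passed in brain against primary lines, where 3.13% of all genes passed (1.56% higher and 1.57% lower), and it was also the 1 that passed in brain against lung lines, where 1.98% did (0.913% higher and 1.07% lower). After median centring of the arrays, the calls of brain against primary lines over all genes were 313 higher and 199 lower, beside 311 and 313 without. No member passed in lung against primary lines, where 0% of genes passed, and 0 members had an unadjusted limma p under 0.05 there, against 4.74% of all genes. With the Ptges3 probe set among chromosome 10 genes, described below, the unadjusted limma p of Ptges3 there was 0.0269. In the F test over the 3 origins Ptges passed (adjusted p = 0.00127) and the other 8 did not, with 2.36% of all genes passing. The median log2 difference of the 9 members was -0.01 in brain against primary lines, 0.05 in lung against primary and -0.10 in brain against lung lines, beside 0.00, 0.01 and -0.01 over all genes.

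**Figure D1:**
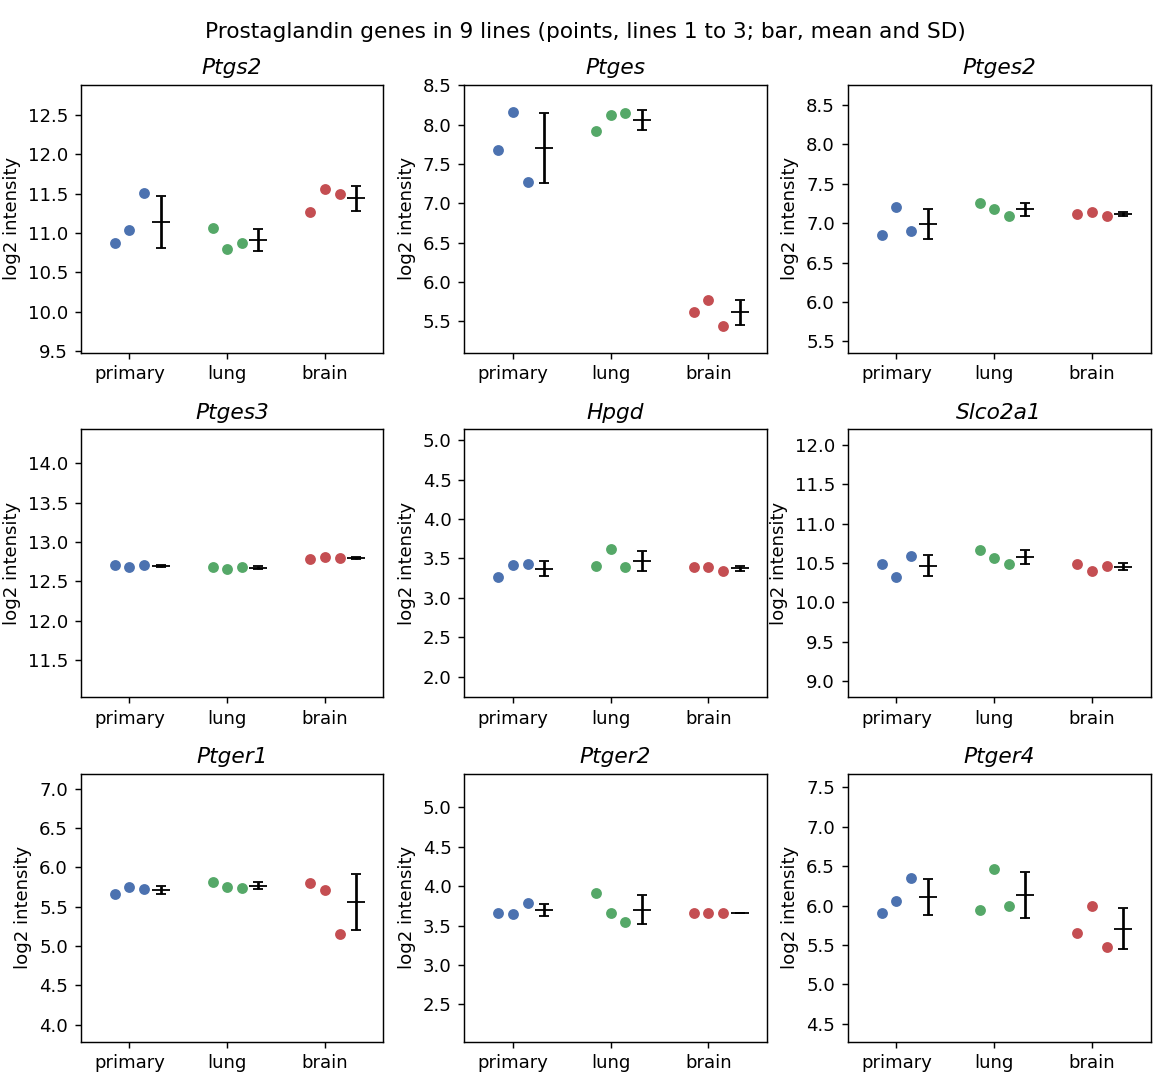
Log2 intensity (y axis, each panel spanning the same number of log2 units) of 9 prostaglandin genes in primary, lung and brain lines (x axis). Points are lines 1 to 3 and the bar beside them is the mean with its SD. Ptges lies at 5.45 to 5.77 in brain lines and at 7.27 to 8.16 in all others, while the other 8 genes span less than 1 log2 unit over the 9 lines.

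The start regions of Ptges and of its partner Ptgs2 are shown because the former was low in brain lines while the latter was not. Both sequences are the 250 bases before the RefSeq transcription start in GRCm38.p6, read 5′ to 3′ on the gene's strand. The Ptges region is chr2:30903298-30903547 on the minus strand and the Ptgs2 region is chr1:150099781-150100030 on the plus strand. Capitals mark matches to the motifs searched.
Ptges: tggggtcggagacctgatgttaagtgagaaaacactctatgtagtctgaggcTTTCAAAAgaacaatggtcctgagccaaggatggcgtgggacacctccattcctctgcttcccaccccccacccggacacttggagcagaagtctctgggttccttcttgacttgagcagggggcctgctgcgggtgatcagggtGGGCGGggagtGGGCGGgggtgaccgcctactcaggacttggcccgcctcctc
Ptgs2: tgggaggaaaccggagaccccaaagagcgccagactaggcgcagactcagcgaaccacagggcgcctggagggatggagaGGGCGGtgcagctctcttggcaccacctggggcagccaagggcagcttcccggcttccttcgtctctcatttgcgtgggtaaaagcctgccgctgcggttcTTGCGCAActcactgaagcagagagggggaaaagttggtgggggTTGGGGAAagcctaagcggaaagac

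The Ptges window held 2 GC boxes (GGGCGG) on the gene's strand, 53 to 48 and 42 to 37 bases upstream, and 1 match on the opposite strand to the C/EBP-type motif TTNNGNAA, 198 to 191 bases upstream. The Ptgs2 window held 1 GC box 170 to 165 bases upstream and C/EBP-type matches 69 to 62 and 25 to 18 bases upstream, the former on both strands. Of 32851 promoters of this length, 32.7% held a GC box and 36.8% a C/EBP-type match, searched on both strands. The other motifs had no match in either window: TATAAA (12.4% of promoters), the Egr site GCGGGGGCG (2.57%), the cyclic AMP element TGACGTCA (1.55%) and TGACG, which lies within it (17.8%), CCAAT (33.8%), the E-box CACGTG (6.02%) and the NF-kappaB motif (7.25%). A match is a description of the letters, not a site in use, and a missing match says only that the letters are not in this window.

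Ptgs2, which encodes the inducible cyclooxygenase, did not share the fall of Ptges. Its log2 level was 11.26, 11.56 and 11.49 in brain lines 1 to 3, 11.07, 10.80 and 10.87 in lung lines, and 10.87, 11.04 and 11.50 in primary lines. All brain lines were above all lung lines, and primary line 3 lay among the brain lines. The mean was 11.44 ± 0.15 in brain, 11.14 ± 0.33 in primary and 10.91 ± 0.14 in lung lines (SD, n = 3 each).

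Against lung lines the Ptgs2 difference in brain lines was 0.53 ± 0.15 (SE, 95% interval 0.18 to 0.87), 1.44-fold, with a limma adjusted p of 0.132, above the threshold of 0.05 (0.00700 unadjusted). Of the alternatives run it passed in 1, at 0.0468, when primary line 3, which is in neither group, was left out of the model. Against primary lines the difference was 0.30 ± 0.15 (interval -0.05 to 0.65, adjusted p = 0.403), and for lung against primary lines it was -0.23 ± 0.15 (adjusted p = 0.975). In order of level, brain and primary lines, and primary and lung lines, were neighbours that overlapped.

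Ptges2 encodes a second, constitutive membrane-associated synthase. Its log2 level was 7.11, 7.14 and 7.09 in brain lines, 7.26, 7.18 and 7.09 in lung lines, and 6.85, 7.20 and 6.90 in primary lines, so the 3 origins overlapped. The 95% interval of the brain against primary difference was -0.09 to 0.34 and that of brain against lung -0.27 to 0.15 (limma adjusted p = 0.616 and 0.846). The intervals leave room for changes of up to those sizes and hold no fall of the size of that in Ptges.

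Ptges3 encodes p23, a co-chaperone of Hsp90 that also acts as a cytosolic prostaglandin E synthase. Its brightest probe set read 12.78, 12.81 and 12.80 in brain lines, 12.69, 12.65 and 12.68 in lung lines, and 12.71, 12.69 and 12.71 in primary lines. The 3 origins did not overlap in any comparison, and the differences were small: 0.09 ± 0.06 in brain against primary, -0.03 ± 0.06 in lung against primary and 0.12 ± 0.06 in brain against lung lines. None passed (limma adjusted p = 0.493, 0.991 and 0.351). Origins without overlap were found for 2 of 9 members in brain against primary lines (17.8% of all genes), 1 of 9 in lung against primary (8.71%) and 3 of 9 in brain against lung (16.9%), the members being Ptges, Ptges3 and, in the last, Ptgs2.

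The array carries 3 probe sets annotated to Ptges3, and they gave different sizes. The gene lies on chromosome 10 in GRCm38.p6. Of the 20 named probe sets closest in number to each, 19 belonged to chromosome 10 genes for the dimmest probe set, 19 to chromosome 4 genes for the brightest and 19 to chromosome 6 genes for the third, so the values of the brightest and the third are uncertain for Ptges3. Whether they read near-identical copies of the gene was not tested.

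The probe set that sits among chromosome 10 genes read 10.43, 10.44 and 10.30 in brain lines, 9.94, 9.79 and 10.03 in lung lines, and 10.24, 10.05 and 10.13 in primary lines. Every brain line was above every primary line, and every primary line above every lung line. With this probe set in place of the brightest, a choice made after its values were seen, brain lines were higher than lung lines by 0.47 ± 0.08 (SE, limma adjusted p = 0.0237 over all genes). The call was lost when every probe set of the array was tested (0.0795) and without brain line 1 (0.0715), brain line 2 (0.0763), lung line 1 (0.0750) or lung line 2 (0.1003). The other comparisons did not pass with it, at 0.25 ± 0.08 in brain against primary (adjusted p = 0.167, unadjusted 0.0150) and -0.22 ± 0.08 in lung against primary lines (0.975, unadjusted 0.0269).

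**Figure D2:**
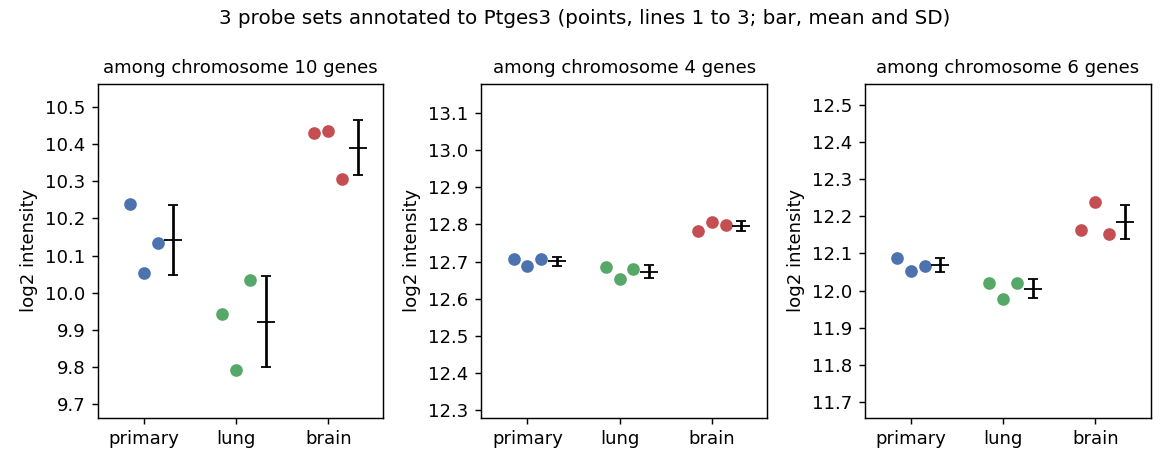
Log2 intensity (y axis, same span in each panel) of the 3 probe sets annotated to Ptges3 in primary, lung and brain lines (x axis); points are lines 1 to 3, and the bar is the mean with its SD. Brain lines are highest and lung lines lowest in each panel, with the widest steps in the probe set among chromosome 10 genes, from 9.79 in lung line 2 to 10.44 in brain line 2.

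Hpgd and Slco2a1 act at the end of the pathway. Hpgd encodes the dehydrogenase that inactivates prostaglandin E2, and its level was between 3.26 and 3.62 in all 9 lines, under the background guide of 4.18, so it may lie at background and no difference is given. Slco2a1 encodes the transporter that carries prostaglandins into the cell for breakdown. Its log2 level was 10.49, 10.40 and 10.47 in brain lines, 10.67, 10.56 and 10.49 in lung lines, and 10.49, 10.33 and 10.59 in primary lines, which overlapped in every comparison. The 95% interval of its difference was -0.20 to 0.17 in brain against primary lines and -0.30 to 0.07 in brain against lung lines (limma adjusted p = 0.970 and 0.584).

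Of the receptors, Ptger4 encodes EP4, which raises cyclic AMP. Its level was 5.65, 5.99 and 5.47 in brain lines, 5.94, 6.47 and 5.99 in lung lines, and 5.90, 6.06 and 6.35 in primary lines. Brain lines 1 and 3 were below all other lines, while brain line 2 lay among them. The difference was -0.40 ± 0.18 in brain against primary (SE, 95% interval -0.79 to -0.0022, limma adjusted p = 0.314) and -0.43 ± 0.18 in brain against lung lines (interval -0.82 to -0.03, adjusted p = 0.290), which did not pass. Lung and primary lines differed by 0.03 ± 0.18.

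Ptger1 encodes EP1, a receptor that signals through calcium. Its level lay between 5.66 and 5.82 in all lines except brain line 3, which read 5.15. The difference of brain against primary lines, -0.16 ± 0.14 (limma adjusted p = 0.705), became 0.04 without that line, which was also the line with the widest spread over all genes. The part of that spread in the value was not tested. Ptger2, the gene of EP2, which also raises cyclic AMP, read 3.54 to 3.91 in all 9 lines, below 4.18, so it is described by its level alone. Ptger3, the gene of EP3, the remaining prostaglandin E2 receptor, is not among the members and is counted below with the other prostanoid receptors. Its level was 3.06 to 3.31 in all 9 lines, also below 4.18.

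**Figure D3:**
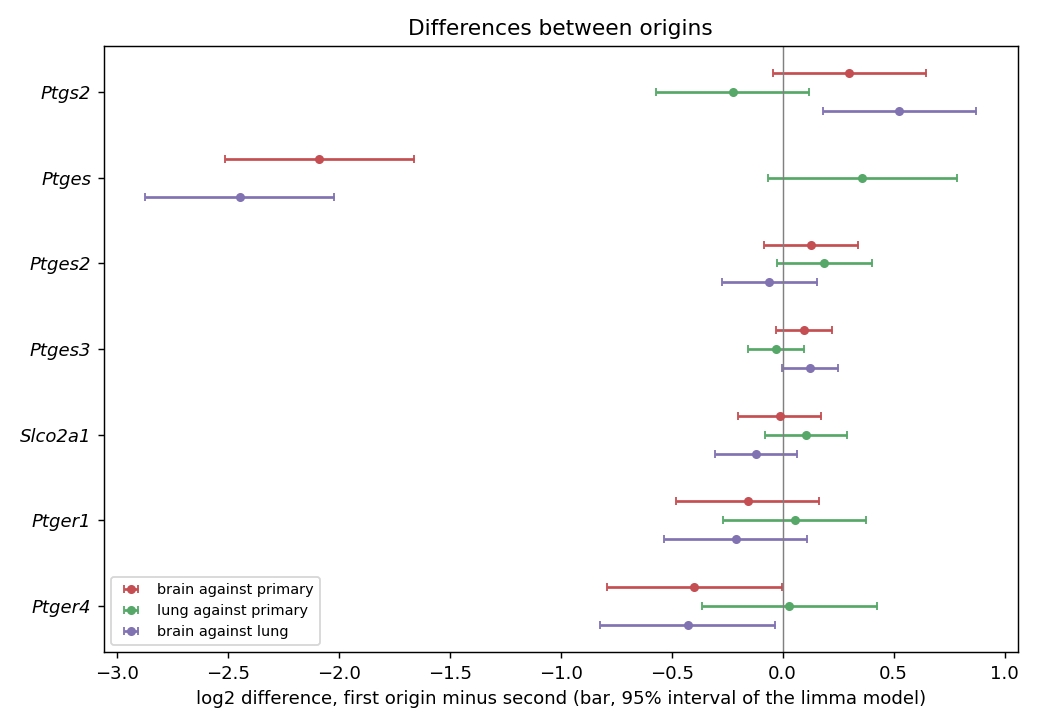
Log2 difference between origins (x axis, first minus second) for the 7 members with a mean above the background guide of 4.18 in every origin (y axis). Points are the limma estimates and bars their 95% intervals. The Ptges intervals for brain lines end at -1.66 and -2.02, apart from those of all other genes shown, and every lung against primary interval shown includes 0. Ptges3 is shown by its brightest probe set only.

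The 5 genes whose levels over the 9 lines were closest to those of Ptges, by the root mean square difference of levels after each gene's mean was subtracted, were Akip1 (0.35 log2 units), Dll4 (0.39), Mmp3 (0.41), Olfm1 (0.42) and Abcc3 (0.47). Akip1 encodes a protein that binds the catalytic subunit of protein kinase A, Dll4 a Notch ligand, Mmp3 the protease stromelysin, Olfm1 a secreted glycoprotein and Abcc3 an efflux pump for organic anions. Akip1 read 3.70 to 3.82 in brain lines, which is under 4.18, and 5.25 to 6.14 in the others. Dll4 read 5.20 to 5.65 in brain lines and 7.11 to 8.03 in the others, and Mmp3 8.23 to 9.96 and 11.32 to 11.92. Olfm1 read 5.84 to 6.84 in brain and 7.93 to 8.39 in the other lines, and Abcc3 4.80 to 5.22 and 6.26 to 6.86. All 5 share with Ptges a gap between the brain lines and the rest, as the measure of likeness selects. Mmp3, Olfm1 and Abcc3 were lowest in brain line 3, as Ptges was, and that line had the widest spread over all genes.

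**Figure D4:**
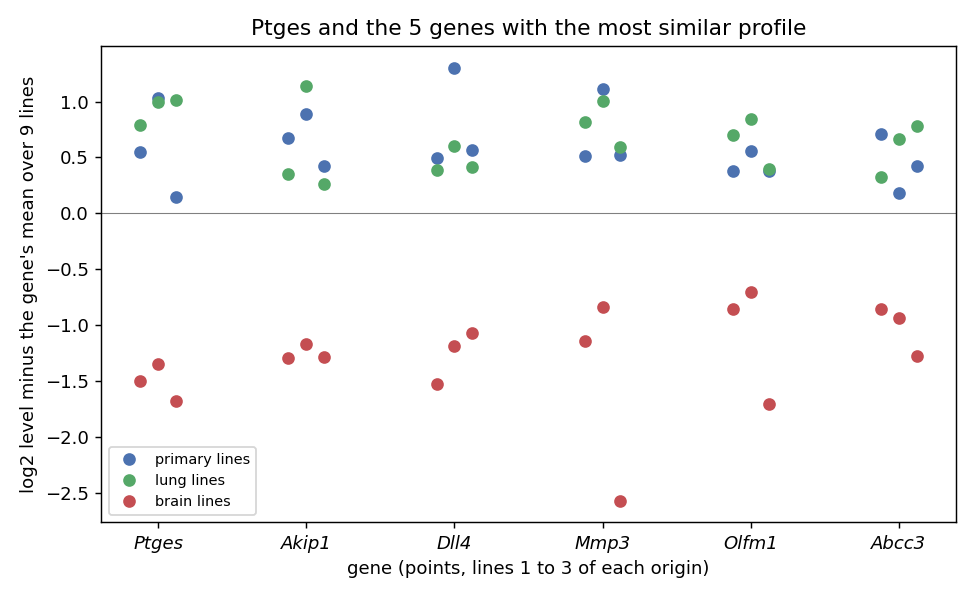
Log2 level minus the gene's mean over the 9 lines (y axis) for Ptges and the 5 genes with the closest profile (x axis); each point is 1 line, coloured by origin. The brain lines lie below 0 and the lung and primary lines above 0 for every gene shown, with Mmp3 in brain line 3 the lowest point.

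Genes around the pathway were described as 9 lists. The share of all genes that passed was 3.13% in brain against primary, 1.98% in brain against lung and 0% in lung against primary lines. In lists of this size, few calls are thus no trait of the pathway. The list of arachidonic acid release also holds Acsl4, Lpcat3 and Mboat7, which act in the return of that acid to membranes. Of the list's 24 measured genes, 0 passed in any comparison. The largest differences of brain against primary lines among them were those of Acsl4, which attaches arachidonic acid to coenzyme A (-0.53 ± 0.20, SE, limma adjusted p = 0.230), and the phospholipase gene Plaat3 (0.47 ± 0.14, adjusted p = 0.113). Acsl4 read 10.28, 10.24 and 9.42 in brain lines 1 to 3 and 10.33 to 10.68 in primary lines, so brain line 3 stood apart. None of 7 other prostanoid synthases, 6 other prostanoid receptors, 8 genes listed for export and later breakdown or 11 lipoxygenase and leukotriene genes passed in any comparison. The median log2 differences of these 5 lists in brain against primary lines were 0.04, 0.01, 0.00, -0.09 and 0.08, beside 0.00 over all genes.

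Among the other prostanoid synthases, the largest differences of brain against primary lines were -0.20 ± 0.33 for the carbonyl reductase gene Cbr1 and 0.10 ± 0.10 for Prxl2b, a prostamide and prostaglandin F synthase. Among receptors, Ptgdr, a prostaglandin D2 receptor, had mean levels of 4.39 in brain and 4.14 in primary lines, the latter under 4.18, and Ptgdr2 differed by -0.15 ± 0.10. The list of export and later breakdown also holds uptake carriers, among them the organic anion transporter gene Slco4a1. Slco4a1 differed by -0.95 ± 0.30 (limma adjusted p = 0.139), and Cbr3 had mean levels of 3.96 and 4.56, the former under 4.18. Lta4h, which encodes the enzyme of leukotriene B4 synthesis, differed by 0.20 ± 0.12 and the lipoxygenase gene Alox15 by 0.19 ± 0.11.

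The MAPEG proteins are the membrane enzyme family to which the Ptges product belongs. Of its 5 other measured genes, Mgst1, a microsomal glutathione transferase, was the 1 that passed, in brain against primary and in brain against lung lines, and the list's median was -0.44 and -0.57. Mgst1 read 5.36, 4.03 and 5.17 in brain lines, 5.89, 6.41 and 6.79 in lung lines, and 6.76, 6.80 and 6.52 in primary lines, so the brain lines lay below all others. Brain line 2 was under 4.18, and without it the difference of brain against primary lines was -1.43. With all lines, the fall of Mgst1 was 3.58-fold against primary lines (-1.84 ± 0.32, SE, limma adjusted p = 0.0175), but the test was not passed when primary line 1 (0.0694) or 2 (0.0706) was dropped, when all probe sets were tested (0.0699) or when the lung arrays were omitted (0.0707). Against lung lines it was -1.51 ± 0.32 (adjusted p = 0.04996), and this was lost without any 1 line other than brain line 1, with adjusted p from 0.0660 to 0.166, with the mouse number as a block (0.0524), with all probe sets tested (0.150) and with the 6 arrays compared alone (0.155). Mgst2 and Mgst3 differed from primary lines by -0.44 ± 0.42 and -0.54 ± 0.20 and did not pass. In brain lines 1 to 3, Mgst2 read 8.04, 7.05 and 6.26 and Mgst3 read 7.42, 7.64 and 6.75. Both were lowest in brain line 3, the line with the widest spread over all genes.

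Of 21 measured inducers and regulators of Ptgs2 or Ptges, 1 rose and 1 fell in brain against primary lines and 1 fell in brain against lung lines. Cebpb, which encodes a C/EBP transcription factor, read 8.25, 8.28 and 8.14 in brain lines, 8.77, 8.86 and 8.58 in lung lines, and 8.58, 8.75 and 8.82 in primary lines. It fell by 0.49 ± 0.09 against primary lines (log2, SE, limma adjusted p = 0.0239) and by 0.51 ± 0.09 against lung lines (0.0253). The former call was lost without brain line 1, 2 or 3 or primary line 2 or 3 (0.0558 to 0.0858), and the latter without brain line 1, 2 or 3 or lung line 1 or 2 (0.0624 to 0.110). Both were also lost when all probe sets were tested (0.0739 and 0.0845) or only the 6 arrays compared were fitted (0.0555 and 0.0710).

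Cav1, which encodes the membrane protein caveolin, read 6.74, 7.45 and 6.68 in brain lines and 5.66, 5.85 and 6.05 in primary lines. It rose 2.15-fold (1.10 ± 0.22, limma adjusted p = 0.0289), a call lost without brain line 2, lung line 2 or any 1 primary line (0.0571 to 0.105), with all probe sets tested (0.0979) and with the 6 arrays compared alone (0.0817). Egr1, an immediate early transcription factor gene, differed by -0.37 ± 0.20 and did not pass. Il1a, the gene of the cytokine interleukin 1 alpha, read 3.77, 5.67 and 3.75 in brain lines and 3.42 to 3.50 in primary lines, so its level stood out in brain line 2 alone.

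Of 24 measured genes of the cyclic AMP machinery downstream of EP2 and EP4, 0 passed in brain against primary lines, where the largest values were -0.51 ± 0.12 for the arrestin gene Arrb1 (limma adjusted p = 0.0524) and -0.41 ± 0.17 for the phosphodiesterase gene Pde4b. The adenylyl cyclase gene Adcy3 rose in brain against lung lines, with levels of 7.57 to 7.66 and 7.21 to 7.31 (0.34 ± 0.07, adjusted p = 0.0332). That call was lost without any 1 line other than primary line 1 or 3 (0.0569 to 0.0958), with median centring (0.0758), with an intensity trend (0.0533), with all probe sets tested (0.0845) and with the 6 arrays compared alone (0.0777). Of 13 measured cyclic AMP response genes, Nr4a2, a nuclear receptor gene, fell in brain against primary lines, with levels of 5.997, 6.07 and 6.50 against 6.76, 6.94 and 7.60 (-0.91 ± 0.20, adjusted p = 0.0448). It was lost without any 1 line other than brain line 3 or primary line 1 (0.0717 to 0.134), with median centring (0.0581), with all probe sets tested (0.129) and with the 6 arrays compared alone (0.157). Rgs2 and Id1 differed by -0.64 ± 0.18 and -0.63 ± 0.29 and did not pass. The median log2 differences of the regulator, machinery and response lists in brain against primary lines were -0.01, -0.06 and -0.16. In lung against primary lines no gene of the 9 lists passed.

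**Figure D5:**
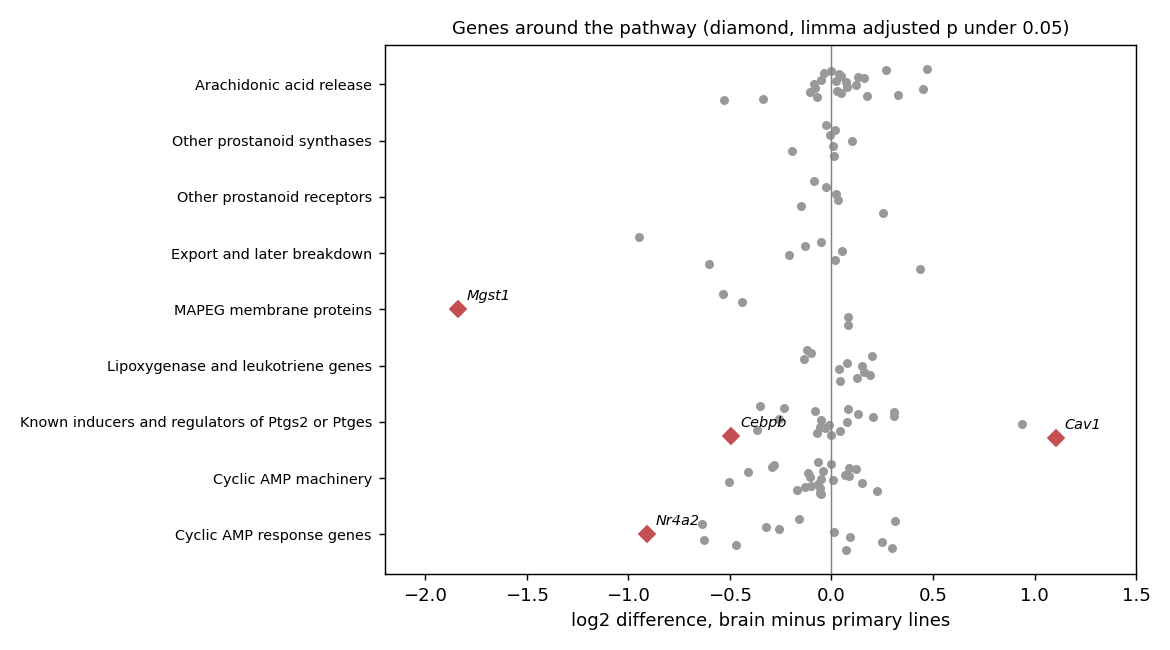
Log2 difference of brain minus primary lines (x axis) for each measured gene of the 9 lists around the prostaglandin pathway (y axis); each point is 1 gene, and diamonds are genes with a limma adjusted p under 0.05. The diamonds are Mgst1 at -1.84, Nr4a2 at -0.91, Cebpb at -0.49 and Cav1 at 1.10.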

How the data were processed

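The authors deposited 1 table of log2 intensities for 9 arrays, which the submitters' processing notes say came from RMA. No source used here gives the software version or a genome build, and the log base was read from the range of the values. Of 35557 probe sets, 21789 had 1 gene symbol in the platform annotation, 1621 several and 12147 none; the brightest probe set per symbol gave 19938 genes. At least 2 lines had exactly the same value in 56.9% of genes, which narrows some SDs.

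All genes were fitted in 1 limma model (version 3.58.1, R 4.3.3; lmFit and eBayes, two-sided) with a coefficient per origin, 6 residual and 3.72 prior degrees of freedom. Benjamini-Hochberg adjustment ran over all 19938 genes, with calls under 0.05. It was tested on simulated data. An exact permutation test of 3 against 3 cannot go below 0.1 and was not used. Genes with a group mean under 4.18, the median of unnamed probe sets, are given as levels.

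Members and lists were chosen with earlier results of these data known. Outside the members, every called list gene is named, with up to 2 uncalled genes with the largest difference in brain against primary lines, and the 5 genes most like each called member. A few other list genes are named for what they encode. Deviations of same-numbered brain and lung lines correlated at 0.284, 0.130 and 0.241 across genes. Those of lung and primary lines correlated at 0.221, 0.0785 and 0.00798, and those of brain and primary lines at 0.0666, -0.000736 and -0.0442. The mouse number in the titles was therefore tried as a block. The mice are separate animals per the design text, and what a shared number stands for is not stated. Sequences are from RefSeq tables of GRCm38.p6, which held 9 of the 10 members. The alternatives were quantile normalization again, median centring, leaving out the dimmest 33.3% of genes, every probe set, only the 6 arrays compared, the block, an intensity trend with a robust prior, and each line left out.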

Additional observations from a re-analysis of the deposited data

How the results depend on the processing

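Ptges kept its direction and its call in all 16 alternatives, at -2.30 to -1.86 in brain against primary lines (adjusted p up to 0.0251) and -2.53 to -2.36 in brain against lung lines (up to 0.0174). With the mouse number as a replicate block, 1 member passed in brain against primary, 1 in brain against lung and 0 in lung against primary lines, as without it. Leaving out each line in turn gave 1 to 2 members in brain against lung lines, the second being Ptgs2 without primary line 3, and 1 member, Ptges, in every such fit of brain against primary lines. With the Ptges3 probe set among chromosome 10 genes, added after seeing the data, 2 members passed in brain against lung lines and 2 in the F test. Differences that changed sign, none of them called, were those of Slco2a1 in brain against primary lines (0.0307 with median centring, and -0.0846 to 0.0457 with a line left out), Ptger1 there (-0.281 to 0.0441 with a line left out) and Ptger4 in lung against primary lines (-0.136 to 0.154 with a line left out). Over all genes, the 624 calls of brain against primary lines became 246 with every probe set, 197 with only the 6 arrays compared and 273 to 556 with a line left out, and the 395 of brain against lung lines became 92, 107 and 69 to 417. The 470 of the F test became 92 with every probe set, 353 with median centring and 160 to 370 with a line left out. They became 599, 591, 604 and 521 in the settings that gave more calls above, in that order. The cause was not tested. No depth or detection p is given, so levels near 4.18 cannot be ordered.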

Other observations

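Primary line 3 stood apart within its origin in several genes around the pathway, which were picked after their values were seen. It had the lowest Ptges (7.27) and the highest Ptgs2 (11.50) of the primary lines. It also had the highest level of all 9 lines of Pla2g4a, the gene of the cytosolic phospholipase that frees arachidonic acid (10.45, against 9.99 and 10.07 in the other primary lines), of Egr1 (6.64, against 5.59 to 6.20 in all other lines) and of Nr4a2 (7.60, against 5.997 to 6.94). Its level of Abcc4, the gene of a pump that exports prostaglandins, was the lowest of the 9 lines (6.40, against 6.81 to 7.33). These are values of 1 line, with no test.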
